A study of Mus musculus with 116 samples.

Results

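The loss of Ku70 from Lig4-/- pro-B cells was examined through the junctions formed at a Cas9 break in Myc. The libraries were chosen by clone and treatment: Lig4-/-Ku70-/- clone A1_1 against Lig4-/- clone A1 (the set named A1_c), and Lig4-/-Ku70-/- clone C1 against Lig4-/- clone C, each with 3 libraries, which makes 12 of the 116 samples of the series. All 4 groups were mouse pro-B cells, an early stage of the B lineage, made into lines with the v-Abl oncogene, and all carried an Emu-Bcl2 transgene. All were held in G1 with STI-571, an inhibitor of the v-Abl kinase, at 3 µM for 96 h and nucleofected with Cas9 and a c-Myc guide RNA. Each genotype was thus represented by 1 clone per lineage, and the labels do not say how a clone was obtained. No expression was measured in these libraries, so neither the cell type nor the absence of Ku70 and Lig4 could be checked and the genotypes rest on the labels. Clones with the same first letter were treated as a lineage (A or C), and nothing in the labels says that the 3 libraries of a group came from separate cultures, so the p-values measure the spread between libraries, which may be technical.

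Ku70 and Ku80 form the ring-shaped Ku heterodimer, which loads onto broken DNA ends, shields them from resection and recruits the other factors of classical non-homologous end joining. DNA ligase IV, encoded by Lig4, seals the ends at the last step of that pathway. Ends that are not sealed in this way can be joined by alternative end joining, whose junctions often lack bases from both sides and use short stretches of sequence shared by both ends, called microhomology. In G1 there is no sister chromatid to copy from, and the study asked how Ku70 and Lig4 set which of these routes is taken in arrested cells.

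The break lay on the plus strand of chromosome 15 between 61987303 and 61987304 (mm10), inside Myc (chromosome 15, 61985341 to 61990361 in RefSeq GRCm38.p6); exon and intron annotation was not used here. The sequence around it is shown because every deletion below is cut from it. It spans chr15:61987264-61987343 on the plus strand, has 40 bases to each side of the break, and was read from the majority base of the deposited reads. The capitals mark the GGG that lies 3 bases past the break, a motif of the kind Cas9 needs beside its target.
break site: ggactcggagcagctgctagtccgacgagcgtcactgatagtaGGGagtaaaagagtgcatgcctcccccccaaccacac

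The deletions that recurred most in Lig4-/-Ku70-/- cells are shown as the joined sequence with 20 bases to each side, and the capitals mark the bases shared by both ends. They are ordered by the mean share of a library's rows that each held over the 6 Lig4-/-Ku70-/- libraries.
3 bp deletion: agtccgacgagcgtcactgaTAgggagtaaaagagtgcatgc
46 bp deletion: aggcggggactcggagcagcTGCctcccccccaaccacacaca
25 bp deletion: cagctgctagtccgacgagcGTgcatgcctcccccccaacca
5 bp deletion: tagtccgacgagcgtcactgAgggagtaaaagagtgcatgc
42 bp deletion: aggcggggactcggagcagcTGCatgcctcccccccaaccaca
27 bp deletion: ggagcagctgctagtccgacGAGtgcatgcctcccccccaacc

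A primer upstream of the break (the bait) was extended into whatever sequence had been joined to it (the prey), and each row of the deposited lists is 1 read with its bait end and prey start. The Lig4-/- lists held 86, 411 and 82 rows in clone A1 and 138, 385 and 150 in clone C. The Lig4-/-Ku70-/- lists held 9082, 6412 and 13431 rows in clone A1_1 and 42340, 44798 and 42026 in clone C1. All libraries of a set were referred by the authors to the same number of raw reads, 201858 in lineage A and 273198 in lineage C, and abundance is given per 100000 of them. A class held by 3 rows would make up 3.66% of the smallest library and 0.00670% of the largest, so shares in Lig4-/- libraries are far coarser. Replicate 2 of Lig4-/- clone A1 stood apart from its group, with 32.1% of its rows in insertions at the break against 2.33% and 0% in the other replicates. In lineage A both genotypes were present in 2 sequencing runs, and in lineage C the run and the genotype cannot be told apart.

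Rows were sorted into 8 classes by where the bait was joined. Exact rejoining without loss or gain of a base was at 0 in all 12 lists, and also in the lists of WT clone A. A precise rejoin reads the same as an uncut allele, so the lists cannot show this class. Its 0 therefore sets no limit on how often exact rejoining took place. The other classes were insertions at the break with nothing deleted, deletions of 1 to 100 bp (short) or over 100 bp and up to 100 kb (long), duplications and inversions within 100 kb, joins to chromosome 15 more than 100 kb away, and translocations to other chromosomes. Libraries were compared by a two-sided exact permutation test of the difference in means, with labels permuted within each lineage. It has 400 relabellings and a smallest p of 0.005, and p-values were adjusted (Benjamini-Hochberg) over 40 measures. Intervals and limits from counts cover counting error only, since the reads carry no molecular identifier and several may stem from 1 molecule.

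Most of what appeared once Ku70 was also absent was deletion at the break. Short deletions numbered 36, 199 and 11 in the Lig4-/- A1 libraries and 7000, 4808 and 7776 in A1_1, and 34, 234 and 67 in clone C against 26379, 27452 and 26012 in C1. The lowest Lig4-/-Ku70-/- library of each lineage lay far above the highest Lig4-/- library. Per 100000 raw reads the level was 40.6 ± 50.6 (SD, n = 3) in A1 and 3234 ± 763 in A1_1, a ratio of 79.6, and 40.9 ± 39.2 in C and 9742 ± 274 in C1, a ratio of 238. The mean rise in log2 abundance was 7.77 (exact permutation p = 0.005, adjusted p = 0.0105), seen in 6 of 6 libraries. The Lig4-/- spread came from replicate 2 of each clone, and without both of these libraries the rise was 8.70 (exact permutation p = 0.010). The ratio was 278 without replicate 2 of A1 and 527 without replicate 2 of C.

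Long deletions rose by as much. They numbered 10, 30 and 4 in A1 against 1430, 1075 and 3697 in A1_1, and 9, 85 and 31 in C against 12470, 14171 and 12620 in C1. The ratios of the group means were 141 in lineage A and 314 in lineage C, and the mean rise in log2 abundance, 8.05, had the smallest p that the test allows (exact permutation p = 0.005, adjusted p = 0.0105, 6 of 6 libraries). Without replicate 2 of A1 and of C it was 8.79 (exact permutation p = 0.010). The ratio in lineage A was 295 without replicate 2 of A1 and 85.4 without replicate 3 of A1_1, and in lineage C it was 654 without replicate 2 of C. Nearly all long deletions were of 1 kb or less, and these made up 16.9% to 34.0% of the deletions in the Lig4-/-Ku70-/- libraries and 10.5% to 31.6% in the Lig4-/- libraries. Deletions over 1 kb stayed at a few rows in both genotypes, with 4 in A1_1 and 1 in C1 against 6 in A1 and 8 in C, where they lay in replicate 2 of each clone and reached 5899 bp. Such deletions made up 2.62% of the deletions of replicate 2 of A1 and 2.51% of those of replicate 2 of C. No Lig4-/-Ku70-/- library had more than 0.0356%. No list held a deletion over 10 kb.

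**Figure D1:**
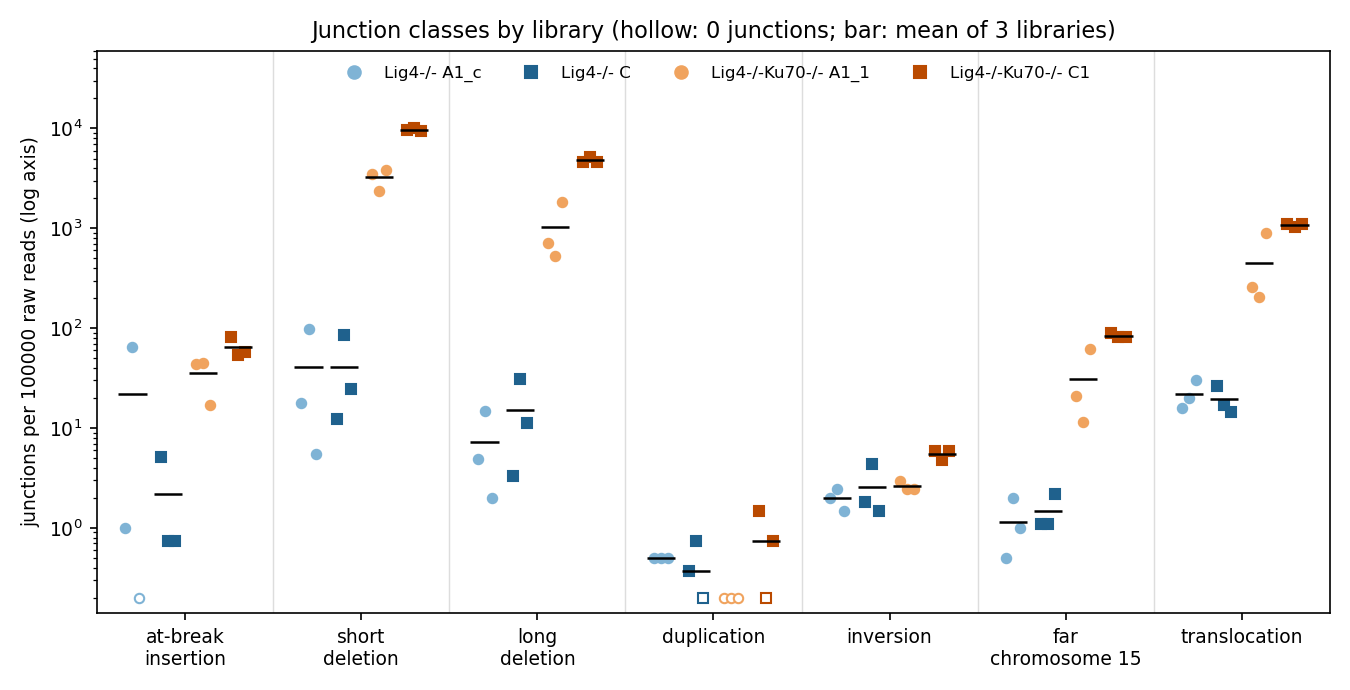
Junctions of each class per 100000 raw reads (log axis) in each of the 12 libraries, by genotype and clone, with the mean of 3 libraries as a bar and 0 counts drawn as hollow symbols at the foot. The Lig4-/-Ku70-/- libraries lie above all Lig4-/- libraries of their lineage for short and long deletions, far joins and translocations, while inversions differ little and duplications stay at 0 to 4 rows.

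Joins that left the neighbourhood of the break rose as well, by less. Translocations numbered 32, 40 and 61 in A1 and 72, 47 and 40 in C, and 516, 410 and 1795 in A1_1 and 3008, 2792 and 2994 in C1. The Lig4-/- libraries were alike in this class, with 22.0 ± 7.42 and 19.4 ± 6.16 per 100000 raw reads, and the Lig4-/-Ku70-/- libraries had 449 ± 382 and 1073 ± 44.2, ratios of 20.5 and 55.3. The lineage A ratio rested in part on replicate 3 of A1_1 and was 10.4 without it. The mean log2 rise was 4.94 (exact permutation p = 0.005, adjusted p = 0.0105, 6 of 6 libraries), and 4.62 without that library (exact permutation p = 0.005). Far joins on chromosome 15 numbered 1 to 6 in the Lig4-/- libraries, 42, 23 and 124 in A1_1 and 242, 223 and 225 in C1, with ratios of 27.0 and 57.5 and a mean rise of 5.01 (exact permutation p = 0.005, adjusted p = 0.0105, 6 of 6 libraries). The ratio in lineage A was 13.9 without replicate 3 of A1_1 and 42.0 without replicate 2 of A1. Some rows of both classes open with Myc sequence and are set apart further on.

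Inversions within 100 kb did not follow the deletions. They numbered 4, 5 and 3 in A1, 5, 12 and 4 in C, 6, 5 and 5 in A1_1 and 16, 13 and 16 in C1, so the groups met in lineage A and lay close together in lineage C. The log2 difference was 0.79 (exact permutation p = 0.015, adjusted p = 0.0273), with ratios of group means of 1.33 and 2.14, the latter 3.33 without replicate 2 of C. Leaving out any 1 of the C1 libraries took it past 0.05 (exact permutation p = 0.050 to 0.065). Their share of a library fell from 3.18% ± 1.77 to 0.0604% ± 0.0210 in lineage A and from 3.14% ± 0.479 to 0.0350% ± 0.00515 in lineage C (difference -3.11 percentage points, exact permutation p = 0.005, adjusted p = 0.0105). The inversion seen most often joined a bait end 30 bp before the break to the minus strand at 61988208 of chromosome 15 through 10 shared bases, printed in capitals.
inversion: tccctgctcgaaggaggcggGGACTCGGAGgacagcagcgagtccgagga

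It had 1 row in 4 of 6 Lig4-/- libraries and in 5 of 6 Lig4-/-Ku70-/- libraries, although these differed in depth, and the other inversions of Lig4-/-Ku70-/- libraries that the ranking would name had a single row each. Duplications were at 1, 1 and 1 row in A1, 1, 2 and 0 in C, 0 in all of A1_1 and 4, 0 and 2 in C1, and their abundance did not pass the test (log2 difference -0.53, exact permutation p = 0.575, adjusted p = 0.622).

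Insertions at an otherwise intact break were the class that was hardest to compare. They numbered 2, 132 and 0 in A1, 14, 2 and 2 in C, 88, 91 and 34 in A1_1 and 221, 147 and 157 in C1, so that replicate 2 of A1 lay above all A1_1 libraries. The log2 difference in abundance was 4.42 (exact permutation p = 0.020, adjusted p = 0.0308), with 3 of 6 libraries above their lineage's Lig4-/- libraries. It was 5.57 without replicate 2 of A1 (exact permutation p = 0.005), and it turned to -0.19 when each distinct junction was counted once (exact permutation p = 0.830). Such a count keeps 50.9% to 98.8% of the rows of a Lig4-/- library and 18.3% to 32.5% of a Lig4-/-Ku70-/- library. Here and below, differences over distinct junctions therefore cannot be told apart from the difference in depth. What the Lig4-/-Ku70-/- libraries held was almost a single junction, a 1-base insertion of A at the break, printed with the inserted base in capitals.
1-base insertion: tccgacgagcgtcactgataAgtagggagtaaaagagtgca

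The A insertion accounted for 88 of 88, 84 of 91 and 34 of 34 insertions in A1_1 and for all 221, 147 and 157 in C1. In replicate 2 of Lig4-/- A1 it accounted for 68 of 132, beside 27 insertions of 2 bases and 18 of 3 or more, with 25 distinct insertions in all. WT clone A libraries, in which both proteins are present, had 62.6% to 63.6% of their rows in this class, of which 34.2% to 35.7% were the A insertion. As a share of rows, insertions at the break made up 0.253% to 1.42% of the Lig4-/-Ku70-/- libraries, against 0% to 32.1% in Lig4-/- (difference -7.10 points, exact permutation p = 0.125, adjusted p = 0.156). Without replicate 2 of A1 that difference was -1.94 points (exact permutation p = 0.255), and it passed 0.05 without replicate 3 of A1 or replicate 2 of C (exact permutation p = 0.010 and 0.040).

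Among all rows, short deletions made up 70.0% ± 10.5 in A1_1 and 61.8% ± 0.515 in C1, against 34.6% ± 18.6 in A1 and 43.4% ± 18.1 in C. That gain of 26.9 points (exact permutation p = 0.005, adjusted p = 0.0105, 6 of 6 libraries) shrank to 0.921 points over distinct junctions (exact permutation p = 0.955). Long deletions gained 13.0 points (exact permutation p = 0.005, adjusted p = 0.0105), from 7.94% ± 3.42 to 20.0% ± 6.53 in lineage A and from 16.4% ± 8.60 to 30.4% ± 1.13 in lineage C. With the division at 200 bp the difference was -2.11 points (exact permutation p = 0.255), and with the prey side alone it was 3.31 points (exact permutation p = 0.100). Translocations fell as a share, from 40.4% ± 32.5 to 8.48% ± 4.25 and from 30.3% ± 20.2 to 6.82% ± 0.509 (difference -27.7 points, exact permutation p = 0.010, adjusted p = 0.0190), and over distinct junctions the difference was -9.40 points (exact permutation p = 0.375). The shares of far joins went the same way (-1.36 points, exact permutation p = 0.005, adjusted p = 0.0105) and stood at 0.0545 points over distinct junctions. These shares describe how a library is divided, and every class but the duplications had at least as high a mean abundance without Ku70.

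The libraries were next compared by joint structure, that is by the number of bases shared by both ends. Over all junctions, blunt joins with 0 shared bases made up 30.4% ± 1.43 in A1_1 and 35.1% ± 0.473 in C1, against 11.5% ± 2.74 in A1 and 9.92% ± 4.26 in C. Joins with 1 shared base made up 28.9% ± 0.190 and 28.1% ± 0.240, against 9.89% ± 5.56 and 9.96% ± 2.31. Both gains, 22.1 and 18.6 points, were seen in 6 of 6 libraries (exact permutation p = 0.005, adjusted p = 0.0105 for each). Joins with 2 to 3 shared bases made up 33.0% ± 1.21 and 29.3% ± 0.141 without Ku70, against 16.9% ± 2.51 and 32.3% ± 20.9, and did not pass the test (difference 6.54 points, exact permutation p = 0.330, adjusted p = 0.377). Joins with inserted bases fell from 28.1% ± 25.0 to 5.19% ± 0.726 and from 22.0% ± 5.39 to 4.79% ± 0.439 (difference -20.1 points, exact permutation p = 0.005, adjusted p = 0.0105), and over distinct junctions by 5.22 points (exact permutation p = 0.075).

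At the other end of the scale stood overlaps of 7 bp or more, whose share fell from 25.0% ± 17.7 to 0.290% ± 0.0321 in lineage A and from 18.6% ± 14.8 to 0.103% ± 0.0178 in lineage C (difference -21.6 points, exact permutation p = 0.005, adjusted p = 0.0105). Their abundance hardly moved: 13.4 ± 2.62 and 10.6 ± 6.05 per 100000 raw reads in Lig4-/-, and 13.9 ± 5.63 and 16.2 ± 2.44 in Lig4-/-Ku70-/-. A set of 12 comparisons of abundance by overlap length, chosen after the data were seen and adjusted among themselves, put this log2 difference at 0.39 (exact permutation p = 0.325, adjusted p = 0.355). Every shorter overlap rose, by 8.51 for 0 bp, 8.43 for 1 bp, 7.44 for 2 to 3 bp and 5.18 for 4 to 6 bp, and joins with inserted bases rose by 4.72 (exact permutation p = 0.005, adjusted p = 0.0060 for each). Most of the overlaps of 7 bp or more were translocations, which are described further on.

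**Figure D2:**
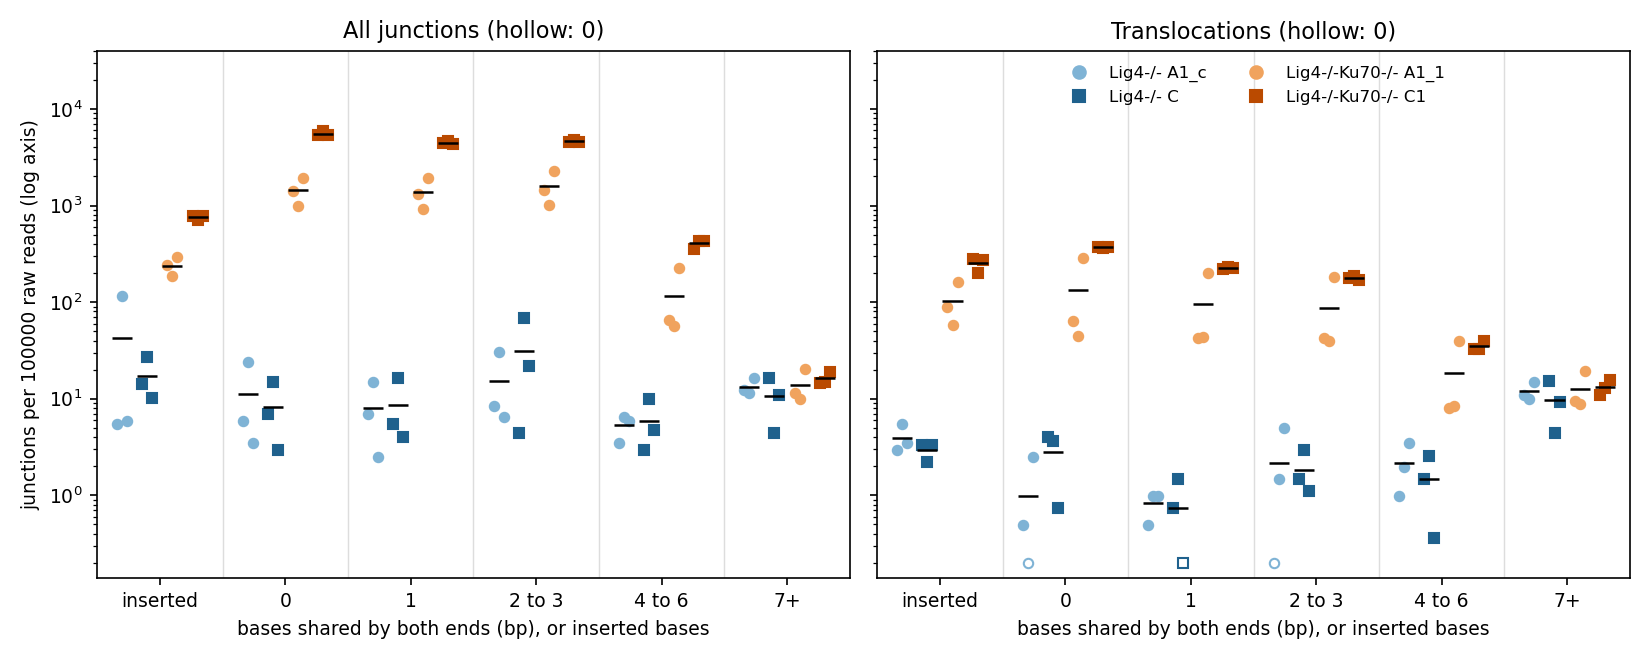
Junctions per 100000 raw reads (log axis) by the number of bases shared by both ends, for all junctions on the left and translocations on the right, in each library with the mean of 3 as a bar and 0 counts as hollow symbols. Libraries of both genotypes lie together at 7 bp or more, at group means of 10.6 to 16.2 for all junctions, and apart at every shorter overlap.

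Within short deletions alone, the blunt joins rose from 16.4% ± 6.34 to 32.0% ± 2.50 in lineage A and from 11.2% ± 8.38 to 37.0% ± 0.516 in lineage C (difference 20.7 points, exact permutation p = 0.005, adjusted p = 0.0105, 6 of 6 libraries). Joins with inserted bases fell from 31.4% ± 22.4 to 2.74% ± 0.359 and from 22.7% ± 11.3 to 3.51% ± 0.100 (difference -23.9 points, exact permutation p = 0.005, adjusted p = 0.0105). That fall was 10.0 points over distinct junctions and no longer passed (exact permutation p = 0.170). The share with at least 2 shared bases was 35.2% ± 2.18 and 30.6% ± 0.498, against 28.0% ± 12.2 and 46.9% ± 28.4 (difference -4.53 points, exact permutation p = 0.610, adjusted p = 0.642). It became -22.2 points over distinct junctions (exact permutation p = 0.005), a value that cannot be told apart from the difference in depth. No short deletion of Lig4-/- libraries and 1 of Lig4-/-Ku70-/- libraries had 7 or more shared bases. In long deletions, which were too few in some Lig4-/- libraries for a test, at least 2 bases were shared in 40.2% to 45.0% of A1_1 and 37.5% to 38.1% of C1 junctions, against 50.0% to 75.0% in A1 and 55.6% to 64.5% in C.

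The sequences printed above carry these overlaps. The 3 bp deletion, which keeps TA, had 234, 285 and 130 rows in A1_1 and 883, 753 and 777 in C1, or 0.968% to 4.44% of a library, and 5, 2 and 0 rows in A1 and 0, 3 and 0 in C. It ranked first in both genotypes. The 46 bp deletion at TGC had 249, 149 and 290 rows in A1_1 and 620, 701 and 670 in C1, and 0, 4 and 1 in A1 and 0, 1 and 2 in C. The 25 bp deletion at GT was in 3 of 6 Lig4-/- libraries with 1 or 2 rows and held 1.42% to 2.06% of each Lig4-/-Ku70-/- library. All 6 deletions named for Lig4-/-Ku70-/- shared at least 1 base, as did 5 of the 6 named for Lig4-/-, and 2 of them (3 bp and 27 bp) were named for both genotypes.

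The other deletions that ranked high in Lig4-/- libraries were of 29, 1, 84 and 9 bp. The 29 bp deletion, with GC shared, had 15 rows in replicate 2 of clone C and 26 to 139 rows in each Lig4-/-Ku70-/- library. The blunt 1 bp deletion lay at 12 rows in replicate 2 of A1 and 3 in replicate 1 of C, 2.92% and 2.17% of those libraries, and at 0 in the other Lig4-/- libraries, whereas it was found in all 6 Lig4-/-Ku70-/- libraries at 0.125% to 0.330%. The 84 bp deletion used 4 shared bases, TCCC, and had 2, 1 and 0 rows in A1 and 0, 4 and 2 in C. It held 0.143% to 0.201% of the Lig4-/-Ku70-/- libraries. With so few rows per library, the Lig4-/- order is uncertain.

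**Figure D3:**
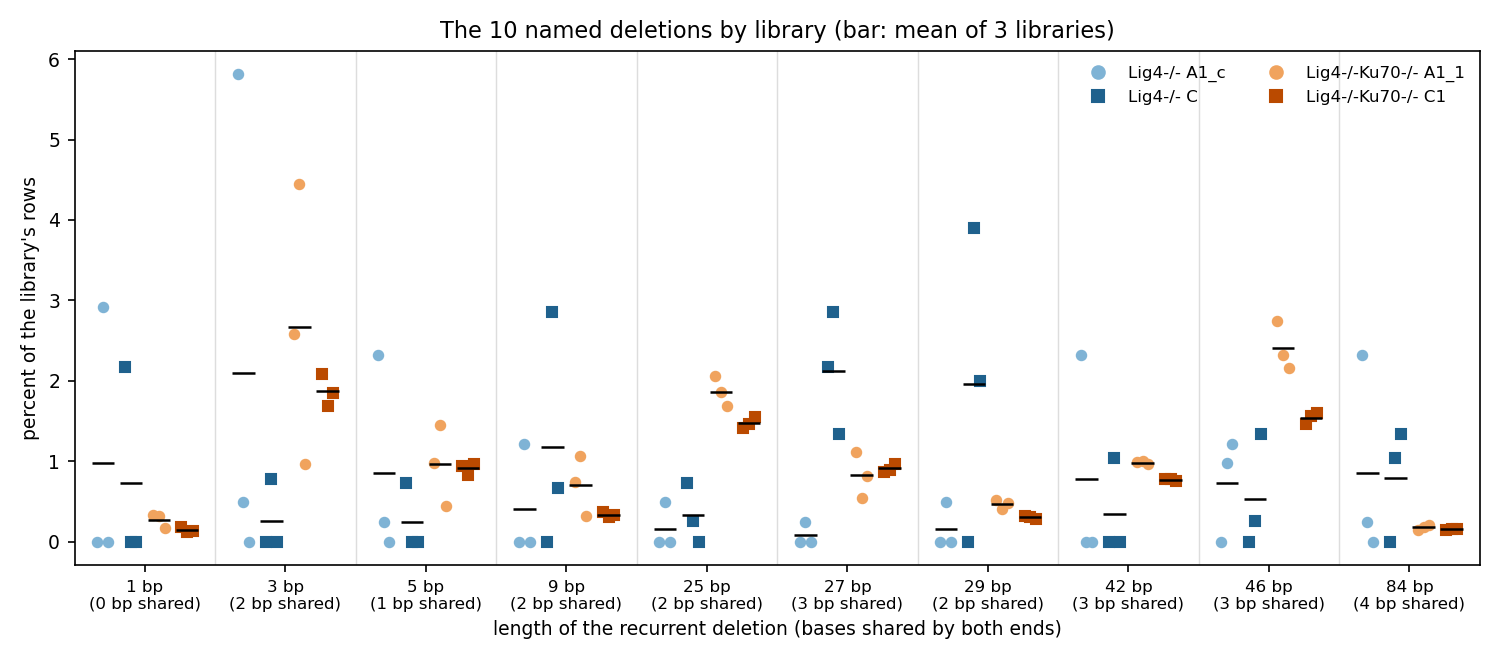
Percent of each library's rows held by each of the 10 named deletions, ordered by length, with the mean of 3 libraries as a bar. The points of the Lig4-/-Ku70-/- libraries cluster for most deletions, while the Lig4-/- points scatter between 0% and 5.81%. The 3 bp deletion reaches the highest Lig4-/-Ku70-/- point, 4.44%, but the 46 bp deletion is above it in replicates 1 and 3 of A1_1.

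A set of 631 deletions was found in every Lig4-/-Ku70-/- library and, being chosen there, is given as a description. It held 62.6% to 81.1% of the deletion rows of those libraries and 41.9% to 69.6% of the deletion rows of the Lig4-/- libraries, which had 7 to 63 of its members each. Among deletions with 2 to 3 shared bases, GC was the overlap in 12.4% ± 1.38 (SD, n = 6) of the Lig4-/-Ku70-/- rows and TGC in 10.2% ± 1.53, followed by AC, GT and TA at 9.70%, 9.67% and 7.94%. The Lig4-/- means over 6 libraries were 12.1% for GC, 10.5% for TGC, 3.84% for AC and 9.78% for TA, each with a range that began at 0%.

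The median deletion length separated the genotypes little. The median number of deleted bases was 59.5, 11 and 46 bp in A1, 13, 57 and 63 bp in C, 44, 42 and 60 bp in A1_1 and 56, 61 and 58 bp in C1. The libraries without Ku70 were alike, and replicate 2 of A1 and replicate 1 of C were short. The difference of 0.20 on the log10 scale did not pass the test (exact permutation p = 0.415, adjusted p = 0.461). Counting every distinct junction once gave 0.33 (exact permutation p = 0.005), a value that cannot be told apart from the difference in depth. The bait side lost 26, 5 and 19 bp in A1 and 5, 15 and 16.5 bp in C at the median, against 20, 18 and 29 bp in A1_1 and 27, 29 and 28 bp in C1 (difference 0.29 on the log10 scale, exact permutation p = 0.025, adjusted p = 0.0357). It no longer passed when replicate 2 of A1, replicate 1 of C, replicate 1 or 3 of A1_1 or any C1 library was left out (exact permutation p = 0.055 to 0.115, differences 0.19 to 0.30). The prey side did not pass (0.23, exact permutation p = 0.155, adjusted p = 0.182). Loss on the bait side is limited by the primer and reached at most 87 bp. The 90th percentile of deleted length, which was not tested, was 123 to 153 bp in A1 and 137 to 171 bp in A1_1. In lineage C it was 248 to 392 bp in Lig4-/- and 167 to 171 bp in C1, without overlap.

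Both short-median Lig4-/- libraries were also those with the most intact prey ends. The prey end was intact in 36.7% of the deletions of replicate 2 of A1 and 30.2% of those of replicate 1 of C, against 0% to 6.67% in the other Lig4-/- libraries and 0.985% to 2.63% in the Lig4-/-Ku70-/- libraries. The bait end did not follow this order: it was intact in 10.9% and 11.6% of the deletions of these libraries, 13.0% and 20.0% in replicates 1 and 3 of A1, 1.25% and 1.02% in replicates 2 and 3 of C, and 2.41% to 8.72% without Ku70. Deletions of 10 bp or less made up 49.3% and 48.8% of these libraries' deletions, against 2.04% to 33.3% in the other Lig4-/- libraries and 6.51% to 18.5% without Ku70.

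**Figure D4:**
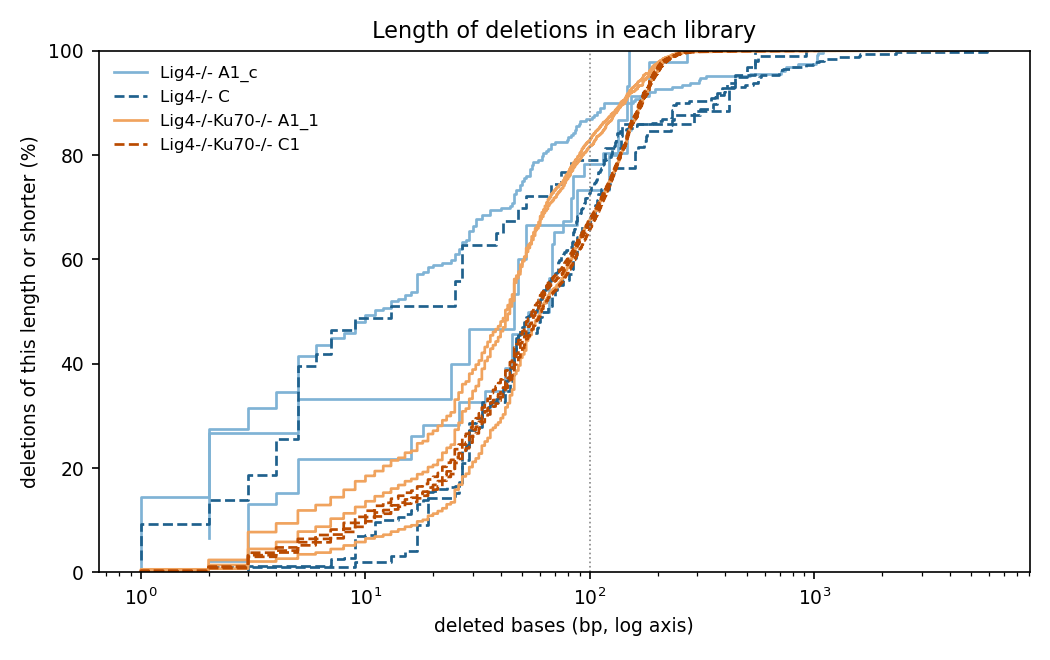
Cumulative percent of the deletions of each library against the number of deleted bases (log axis), with the dotted line at 100 bp, where short and long deletions were divided. The 6 Lig4-/-Ku70-/- curves run close together, with medians of 42 to 61 bp, and the Lig4-/- medians spread from 11 to 63 bp. Replicate 2 of each Lig4-/- clone extends past 1 kb. Replicates 1 and 2 of A1_1 and replicate 1 of C1 do so as well, by at most 3 rows each.

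Translocations differed most in structure. Overlaps of 7 bp or more made up 68.8%, 50.0% and 49.2% of the translocations in A1 and 58.3%, 25.5% and 62.5% in C, and 2.17% to 4.39% in A1_1 and 0.997% to 1.44% in C1 (difference -50.1 points, exact permutation p = 0.005, adjusted p = 0.0105, 6 of 6 libraries). Their number per 100000 raw reads was 11.9 ± 2.62 and 9.64 ± 5.51 in Lig4-/- against 12.6 ± 5.87 and 13.2 ± 2.40 in Lig4-/-Ku70-/- (log2 difference 0.30, exact permutation p = 0.400, adjusted p = 0.400). Each of these translocations was a distinct junction, and the overlaps reached 21 bp. Their bait ends lay a median of 26.5 to 38 bp before the break in Lig4-/- libraries and 23 to 34 bp in Lig4-/-Ku70-/- libraries.

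All other translocation structures were more abundant without Ku70. Blunt joins rose by 7.07 on the log2 scale, joins with 1 shared base by 7.27, joins with 2 to 3 by 6.13, joins with inserted bases by 5.44 and joins with 4 to 6 shared bases by 3.70 (exact permutation p = 0.005, adjusted p = 0.0060 for each). In A1_1 the translocations were 27.2% with inserted bases, 26.6% blunt and 20.2% with 1 shared base, and in C1 23.4%, 34.6% and 20.9%. As shares, blunt translocations rose from 3.77% ± 4.14 to 26.6% ± 5.26 in lineage A and from 13.9% ± 8.23 to 34.6% ± 0.651 in lineage C (difference 21.8 points, exact permutation p = 0.005, adjusted p = 0.0105). Joins with 1 shared base gained 16.8 points (exact permutation p = 0.005, adjusted p = 0.0105).

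Inserted bases in translocations often matched Myc sequence just past the break. They were present in 18.0% to 35.1% of the Lig4-/-Ku70-/- translocations. Outside Igk the commonest inserts, of 2643 rows with an insert, were CCCCCAAC with 297 rows, CCCCAAC with 150, a single C with 146 and CCCCCCAAC with 133. A single base is too short to be placed. The longer inserts stand in Myc just past the break, in front of a run of 23 CA repeats. The run is printed in capitals within the 150 bases from 61987304 to 61987453.
Myc past the break: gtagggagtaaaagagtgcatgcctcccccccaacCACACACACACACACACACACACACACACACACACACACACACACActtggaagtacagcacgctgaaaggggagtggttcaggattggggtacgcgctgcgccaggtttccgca

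Rows in which the first 12 bases past the bait stand in these 150 bases, although the prey was placed on another chromosome, were therefore counted. They were 212, 153 and 397 of the translocations in A1_1 and 926, 637 and 890 in C1, which is 22.1% to 41.1% of a library's translocations and 3215 of 11515 in all. They are counted as translocations by the deposited prey position alone, and whether they are joins to another chromosome or local deletions was not tested. The 150 bases include the CA run, so a join to a CA repeat elsewhere would be counted too. Outside Igk, 3214 rows of Lig4-/-Ku70-/- libraries were counted, and 2063 of them had an insert. In the Lig4-/- libraries the counted rows were 0 to 4, 12 of 292 in all. Among far joins on chromosome 15 they were 135 of 879 rows in Lig4-/-Ku70-/- and 0 of 19 in Lig4-/-. Leaving all of them out gave 21.0 ± 7.30 and 18.7 ± 6.72 translocations per 100000 raw reads in Lig4-/- and 323 ± 320 and 774 ± 13.7 in Lig4-/-Ku70-/-, a log2 rise of 4.48 (exact permutation p = 0.005). Far joins then rose by 4.69 (exact permutation p = 0.005).

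Leaving them out turned the share of translocations with inserted bases. With all rows it was higher by 7.70 points without Ku70 (exact permutation p = 0.070, adjusted p = 0.0903), and without these rows it was lower by a difference of -6.23 points (exact permutation p = 0.030), with 5.08% to 11.8% in Lig4-/-Ku70-/- against 9.30% to 21.6% in Lig4-/-. This alternative was chosen after the data were seen.

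The translocations of Lig4-/-Ku70-/- cells were placed on 20 or 21 reference sequences other than chromosome 15 in each library. The site with the most was Igk, the immunoglobulin kappa light chain locus, where the RAG recombinase makes breaks in arrested cells of this kind. Igk was taken as chromosome 6, 67555636 to 70726754, from the 168 segments of RefSeq. It held 1, 1 and 2 rows in A1 and 2, 0 and 0 in C, against 37, 39 and 242 in A1_1 and 701, 592 and 783 in C1. That was 0% to 3.28% of the Lig4-/- translocations, 7.17%, 9.51% and 13.5% in A1_1 and 23.3%, 21.2% and 26.2% in C1. In this share the libraries did not overlap, and C1 lay above A1_1. None of the 6 Lig4-/- Igk rows had an overlap of 7 bp or more, the structure that filled much of the Lig4-/- translocations. Translocations without such an overlap numbered 10, 20 and 31 in A1 and 30, 35 and 15 in C. In A1_1 they numbered 497, 392 and 1756, and in C1 2978, 2757 and 2951. Set against these counts, the Igk shares of the genotypes overlapped in lineage A and did not in lineage C. Every Igk row was a distinct junction, and both orientations were met, with 142 plus and 176 minus in A1_1 and 990 plus and 1086 minus in C1. Only 1 of the 2394 Igk rows of Lig4-/-Ku70-/- cells opened with the Myc sequence, and without such rows the Igk share was 12.2% to 37.2% in Lig4-/-Ku70-/- libraries and 0% to 3.39% in Lig4-/-. No test was made by site, since the Lig4-/- libraries had 6 Igk rows in all.

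**Figure D5:**
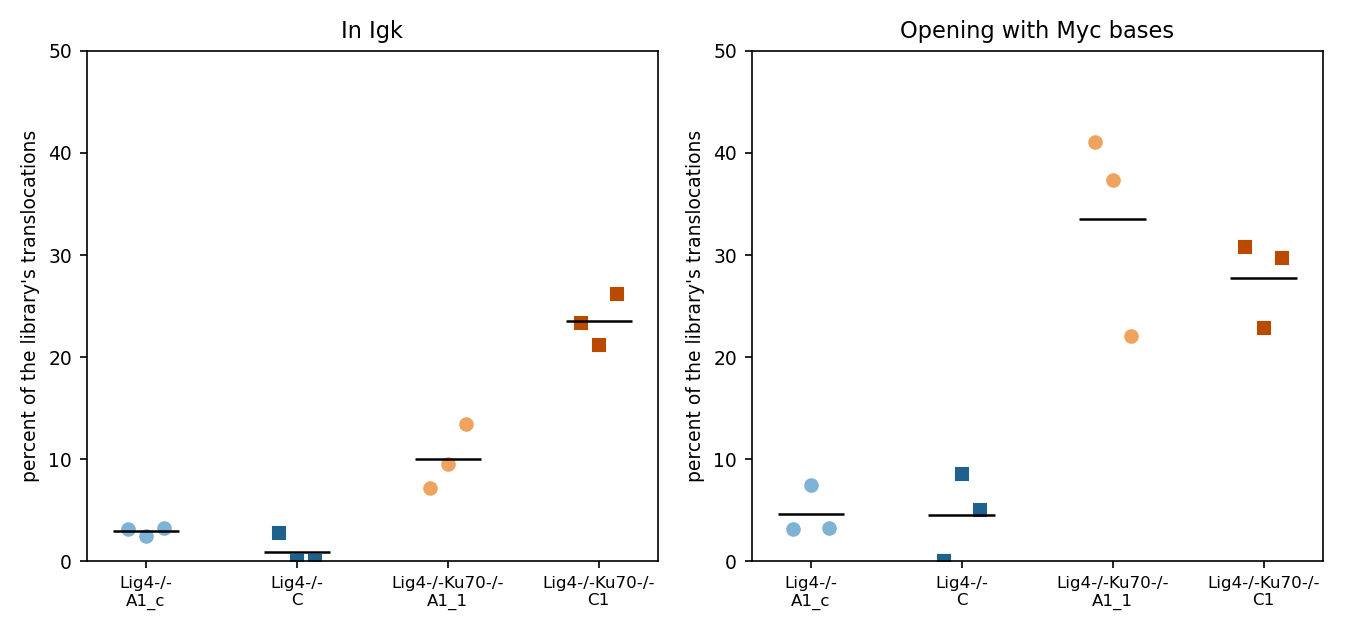
Percent of each library's translocations in Igk (left) and percent whose first 12 bases past the bait stand in the 150 bases of Myc past the break (right), with the mean of 3 libraries as a bar. In Igk the Lig4-/- libraries reach at most 3.28% and the Lig4-/-Ku70-/- libraries lie between 7.17% and 26.2%, and for the Myc opening they reach 8.51% and lie between 22.1% and 41.1%.

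Within Igk the most used 1 Mb was the one from 70000000, which holds the 5 Jk segments, with 14, 23 and 96 rows in A1_1 and 300, 247 and 335 in C1, and 0 to 1 in the Lig4-/- libraries. The Jk segments with 1 kb to each side (70721562 to 70724923) held 65 rows in A1_1 and 244 in C1, and the Vk-bearing bins from 69000000, 68000000 and 67000000 held 616, 646 and 130 rows of Lig4-/-Ku70-/- cells. The fifth bin by frequency lay on chromosome 16 from 19000000, which holds Igl, the lambda light chain locus. Igl had 5 rows in A1_1 and 42 in C1, and Igh, the heavy chain locus on chromosome 12, had 16 and 42. Both were at 0 of 292 translocations in Lig4-/-, which allows up to 1.03% and so does not separate them from the 0.185% to 0.498% of the Lig4-/-Ku70-/- group means.

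Other libraries of the same break give the frame for these levels, as values with no test. With Ku70 put back into the double-null clones, short deletions stood at 41.0 ± 11.3 (A1_1) and 503 ± 233 (C1) per 100000 raw reads and long deletions at 13.2 ± 9.22 and 229 ± 90.3. Ku70-/- clone A1, which keeps Lig4, had 3536 ± 1674 short deletions, 1370 ± 264 long deletions and 291 ± 81.2 translocations, and WT clone A had 3220 ± 738, 5.38 ± 2.77 and 156 ± 39.4. Long deletions were at 5.38 to 15.3 in WT clone A and in Lig4-/- A1_c and C, and at 1024 to 4790 in the 3 groups without Ku70. With Ku70 put back, A1_1 lay in the lower range, and C1, at 229, lay between both ranges. Other sets of Lig4-/- clone A1 libraries had 2.27 ± 0.667 and 2.36 ± 1.83.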

How the data were processed

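Junctions were recovered by a bait-primer method from genomic DNA and sequenced on a MiSeq, per the labels' protocols. The authors deposited, per library, a list with 1 row per read holding alignment positions and the read; the values are positions and sequences from their JoinT-seq pipeline. The submitters' processing notes name Bowtie2 and mm10; versions are not given in the sources used here. Shared bases were those of a read that both its bait and its prey alignment cover, and deletions were counted over both sides. The break was the most frequent bait end and prey start of WT clone A. Abundance was log2 of the count plus 0.5 per 100000 raw reads. Within-class shares were tested where every library had 10 rows or more. Calculations used Python 3.11.15, numpy 2.4.6, pandas 2.3.3 and scipy 1.17.1, and the classification was tested on simulated data. Among 12 pairs of replicates none shared a read name, and all differed in a chi-square test of class counts. Deletions were named as the 6 most frequent of each genotype, insertions and inversions as the 3 most frequent of Lig4-/-Ku70-/-, and translocation sites as the 5 most frequent 1 Mb bins found in at least 5 of the 6 Lig4-/-Ku70-/- libraries. The libraries, classes and lists were chosen with earlier results of these data known.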

Additional observations from a re-analysis of the deposited data

How the results depend on the processing

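All tests here are two-sided exact permutation tests, and a call means p below 0.05 before adjustment. Of 282 tested values under alternatives other than leaving out 1 library, 245 kept their direction and their side of that threshold, and of 480 leave-one-out values 442 did. A further 120 values from 1 lineage cannot pass (smallest p 0.1), and 111 of them moved by less than the spread between replicates. Counting each distinct junction once turned the abundance of at-break insertions to -0.19, gave their share a difference of -1.43 points that passed (exact permutation p = 0.020), and put short deletions at 0.921, far joins at 0.0545 and translocations at -9.40 points; deleted length rose to 0.33 and passed. Long deletions stood at -2.11 points with the division at 200 bp and 3.31 by the prey side alone. The difference in overlaps of at least 2 bp, -20.6 points, was -1.98 for at least 1 bp, -9.78 on chromosome 15 alone and -10.4 without interchromosomal overlaps of 8 bp or more. Distinct junctions per row fell by 55.0 points, which depth sets in part, and were higher by 6.63 points at 82 rows a library. The other values over distinct junctions carry the same limit of depth. Without rows that open with Myc sequence, inserted bases in translocations stood at -6.23 points. Translocation abundance was 4.07 in lineage A, 5.82 in lineage C and 4.27 within lineage A runs, and duplications were at -1.58, 0.53 and -1.58. Leaving out single libraries gave 0.65 to 1.01 for inversions, -9.97 to -1.94 points for at-break insertions, -1.75 to -0.943 for far joins and -27.2 to -15.5 for overlaps of at least 2 bp. The cause of these changes was not tested.

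The replicate numbers do not pair the libraries: correlations of same-numbered libraries ran from -0.61 to 0.67. With the replicate number as a block (exact sign-flip, smallest p 0.0312), at-break insertions at 4.42, inversions at 0.79, duplications at -0.643 points and overlaps of at least 2 bp at -20.6 points no longer passed (p = 0.0625 each). Nor did bait-side length at 0.29, overlaps of 4 to 6 bp in translocations (exact p = 0.0625 for both) and those in short deletions (exact p = 0.0938), while inserted bases in translocations at 7.70 points now passed (exact p = 0.0312). Lig4-/- libraries of 82 to 411 rows limit every share of that genotype.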

Other observations

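Translocations of Lig4-/-Ku70-/- cells also gathered at T-cell receptor loci, which were looked at after the values were seen. Outside the immunoglobulin loci, the 1 kb windows with the most rows were in Tcrg on chromosome 13, at Trgv2 (19336474 to 19336687, 42 rows of which 41 were distinct) and at Trgj2 (19311198 to 19311378, 19 rows, all distinct). A further 15 distinct rows lay in Tcra and Tcrd on chromosome 14 (54122248 to 54122988). The Trgv2 window had 0, 0 and 10 rows in A1_1 and 12, 15 and 5 in C1, and the Trgj2 window had 0, 0 and 1 and 7, 7 and 4. The rows in Tcra and Tcrd were all from C1, with 5, 7 and 3. All of these windows were at 0 of 292 translocations in the Lig4-/- libraries, which allows up to 1.03% and does not separate the genotypes. None of their rows opened with the Myc sequence.

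Narrower sites lay in Zfp536 on chromosome 7 (37504275 to 37504280) and in Scn11a on chromosome 9 (119812449 to 119812453). The first had 17 rows in 6 of 6 Lig4-/-Ku70-/- libraries, all on the minus strand, and 1 row in a Lig4-/- library of clone C. The second had 13 rows in 5 of 6 libraries, all on the plus strand. Of these rows, 2 and 3 opened with the Myc sequence.

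Replicate 2 of Lig4-/- clone A1, which stood apart in insertions and in intact prey ends, was sequenced in a run with cycling WT and cycling Lig4-/- libraries. Of its rows, 71.5% and 73.0% had a junction that is also listed in the 2 WT libraries, against 33.7% and 39.5% for replicate 1 of the same run. For the cycling Lig4-/- library, which had 0.0462% of its rows in insertions at the break, these shares were 63.0% and 34.9%. The part of this overlap in its values was not tested.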
